A study of Mus musculus with 6 samples.

Results

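Interferon-stimulated genes are genes that cells switch on when they sense interferon, and 39 of them were followed here in dendritic cells (DCs) of mouse spleen and lymph node. They were given as a list of gene symbols, each read from the brightest probe set that the array annotation assigns to a single gene symbol. Of the 39 listed genes, 36 had such a probe set, out of 12393 genes measured in all. Isg15 appears only on a probe set shared with another gene symbol, Ifi44 and Xaf1 were not found by symbol, and these 3 were not analysed here.

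The cells were CD11c+ conventional DCs, the antigen-presenting cells that carry the integrin CD11c, obtained by flow sorting from the spleen or the lymph nodes of mice of the inbred strain BALB/c. The labels give no treatment, genotype or age. Spleen and lymph node were each measured on 3 Affymetrix arrays, numbered 1 to 3. Nothing in the labels says that the arrays represent separate animals. The p-values thus reflect the scatter of these arrays, possibly a technical one, and the small number of arrays limits the precision. In bulk RNA such as this, a change in the share of a cell type and a change in RNA per cell cannot be told apart.

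Type I interferons bind the receptor made of IFNAR1 and IFNAR2, whose kinases JAK1 and TYK2 switch on the factor ISGF3, of which STAT2 and IRF9 are subunits. ISGF3 binds the interferon-stimulated response element (ISRE) in promoters. Interferon gamma acts through another receptor and another element, the gamma-activated site (GAS), and many genes answer to both interferons. In DCs, which also make interferon, these genes restrict viruses, sense foreign nucleic acid and set the threshold for the next response.

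The promoters of the listed genes carry these elements unevenly, and those of 4 members are shown because they hold the same element beside differences in both directions. RefSeq promoter windows of assembly GRCm38.p6, from 250 bases before to 50 bases after a transcript start, were given for 26 of the 36 measured members. The ISRE was searched as GAAA, any 2 bases and GAAA again, and the GAS as TTC, any 3 bases and GAA, on both strands. An ISRE match lay in a window of 15 of the 26 members (57.7%), against 3.99% of all 27025 genes with a window. A GAS match lay in 9 of the 26 (34.6%), against 9.55% of all genes, and in Bst2 and Ifitm3 matches of both kinds overlap. The sequences below run 5′ to 3′ along the gene's strand up to a point before the start, with ISRE matches in capitals (read as TTTC, any 2 bases and TTTC where the match is on the opposite strand). Gbp3 lies on chr3:142559984-142560043 (plus strand), Gbp2 on chr3:142620596-142620655 (plus), Ifit3 on chr19:34583365-34583424 (plus) and Oas1a on chr5:120907526-120907585 (minus).
Gbp3: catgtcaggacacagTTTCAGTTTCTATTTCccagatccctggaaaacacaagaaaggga
Gbp2: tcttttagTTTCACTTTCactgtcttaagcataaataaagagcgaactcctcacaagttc
Ifit3: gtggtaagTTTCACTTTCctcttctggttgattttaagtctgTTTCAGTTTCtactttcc
Oas1a: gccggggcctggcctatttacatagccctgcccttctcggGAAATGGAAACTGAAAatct

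Gbp3, Ifit3 and Oas1a each hold 2 matches in the stretch shown, which in Gbp3 and Oas1a overlap. Of the 15 members with an ISRE match, 6 had a higher mean in the spleen arrays and 9 a lower one, with a median log2 difference of -0.34. The 11 members with a window and no match had a median of -0.04. Among those 15, Gbp3 passed the test described below and the other 14 did not, where 3.40% of all genes passed. Mx1, Oas2 and Ifi204, which also passed, had no window given and were not searched for either element. A match is a description of these letters, and it is not evidence that a factor binds there.

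**Figure D1:**
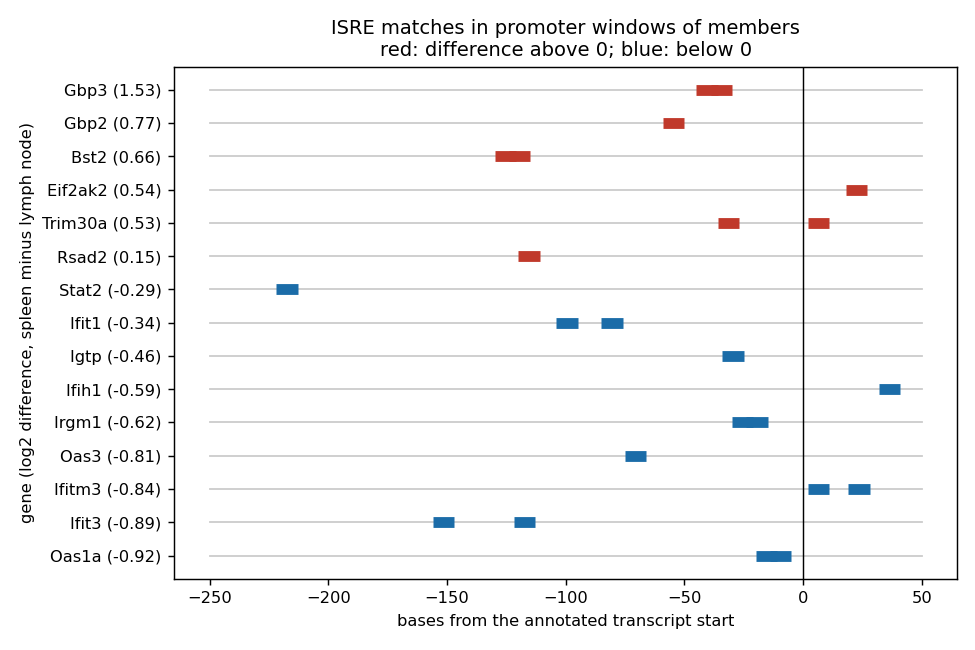
ISRE matches in the promoter windows of the 15 members that hold one, by distance in bases from the annotated transcript start, with the log2 difference (spleen minus lymph node) in parentheses. Of the 23 matches, 11 begin within 100 bases before the start, 7 further upstream and 5 at or after it, in genes with differences above 0 (red, 6 genes) as well as below 0 (blue, 9 genes).

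A few facts of the whole series bear on the values. Array medians lay between 39.4 and 41.3 intensity units. Markers of conventional DCs were present in all 6 arrays. The mean log2 intensity over 8 measured genes was 9.70 to 9.94 in lymph node and 9.01 to 9.62 in spleen arrays. Of the 8, 3 (Itgax, Ciita and Sirpa) were lower in spleen. The others did not pass but had groups without overlap. Among them Xcr1 had a higher mean in spleen (1.14), and Zbtb46, Flt3, H2-Ab1 and Cd74 had lower ones. Markers of plasmacytoid DCs, a cell type specialised in type I interferon, were higher in spleen for 3 of 10 measured genes (Ccr9, Klk1 and Blnk) and lower for 0. Their summed intensity was 691 to 1315 in lymph node and 1671 to 5677 in spleen arrays, and their mean log2 intensity was highest in spleen array 3 (8.50) and, among lymph node arrays, in array 3 (6.25). T cell markers were higher for 2 of 6, Cd28 and Il7r. The T cell receptor complex genes Cd3e (0.93), Cd3g (1.47) and Cd3d (0.74) had overlapping groups and did not pass, nor did Cd5 (-0.41). The mean log2 intensity of the 6 genes was highest in spleen array 1 (7.52). Neutrophil markers were lower in spleen for 1 of 6, Camp, and higher for 0, with a median difference of -1.19, and S100a8 (-2.63) and S100a9 (-3.44) had groups that did not overlap. The 27 bacterial poly-A control probe sets, transcripts added to follow labelling on such arrays, were also higher in the spleen arrays, by 0.98 log2 units without overlap (exact permutation test, two-sided p = 0.1, the smallest that 3 against 3 arrays can give). Ccr7, a receptor of the DCs that migrate into lymph nodes, had a higher mean in the arrays labelled spleen (10.39 against 8.92). This gene alone cannot show whether the organ labels are right, and that was not tested. Spleen and lymph node below therefore mean arrays labelled so.

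The comparison of spleen with lymph node DCs asked how cells sorted as CD11c+ conventional DCs differ between the organs. Their cell type marker levels differed too, as given above. The interferon-stimulated genes did not move together. Mx1, Gbp3 and Ifi204 were higher in spleen and Oas2 was lower, and the other 32 measured members did not pass. This makes 3 higher and 1 lower of 36, or 11.1%, at an adjusted p of 0.05 in limma, where 3.40% of all 12393 genes passed (2.03% higher and 1.37% lower in spleen). The balance of directions moved with the setting. It was 2 higher and 3 lower with a filter at the median level, which kept 31 members and left out Ifi204. With array weights it was 3 and 3. With the replicate block it was 2 and 2, and with the mean of all probe sets per gene 5 and 1. In these fits, in that order, 8.78%, 6.16%, 4.19% and 3.87% of all genes tested passed. Of the members, 13 had a difference above 0 and 23 below 0, with a median of -0.09 against -0.01 over all genes. An unadjusted p under 0.05 was reached by 14 members (38.9%), against 19.0% of all genes. The count of 4 called members fell to 0 without lymph node array 1 or 2 and to 2 (5.56%) without spleen array 1. Of all genes, 0.452%, 0.379% and 1.05% passed in those fits. With the poly-A control level as a covariate in limma 0 members passed, and 0 of all genes. The unadjusted p was under 0.05 for 7, 7 and 2 members after leaving out lymph node array 1, array 2 and with the covariate (13.0%, 13.1% and 5.83% of all genes).

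The members' differences were larger in size than the median over all genes, but so were their levels. The median size of the difference, taken without its sign, was 0.54 log2 units over the members and 0.23 over all genes. The groups did not overlap for 14 members (38.9%), 7 higher and 7 lower in spleen, against 24.5% of all genes (11.8% higher and 12.7% lower). Of all genes 3744 had means under 4 in both organs, and of the members 1. Among the 6197 genes at or above the median level the median size was 0.28, against 0.53 for the 31 members there, and 33.5% had groups that did not overlap, against 41.9%. In the fit on those genes 8.78% passed, and 5 of the 31 members (16.1%). The spread between arrays was also larger for the members. The median SD was 0.29 in lymph node and 0.37 in spleen arrays for the members, against 0.19 and 0.26 for all genes.

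**Figure D2:**
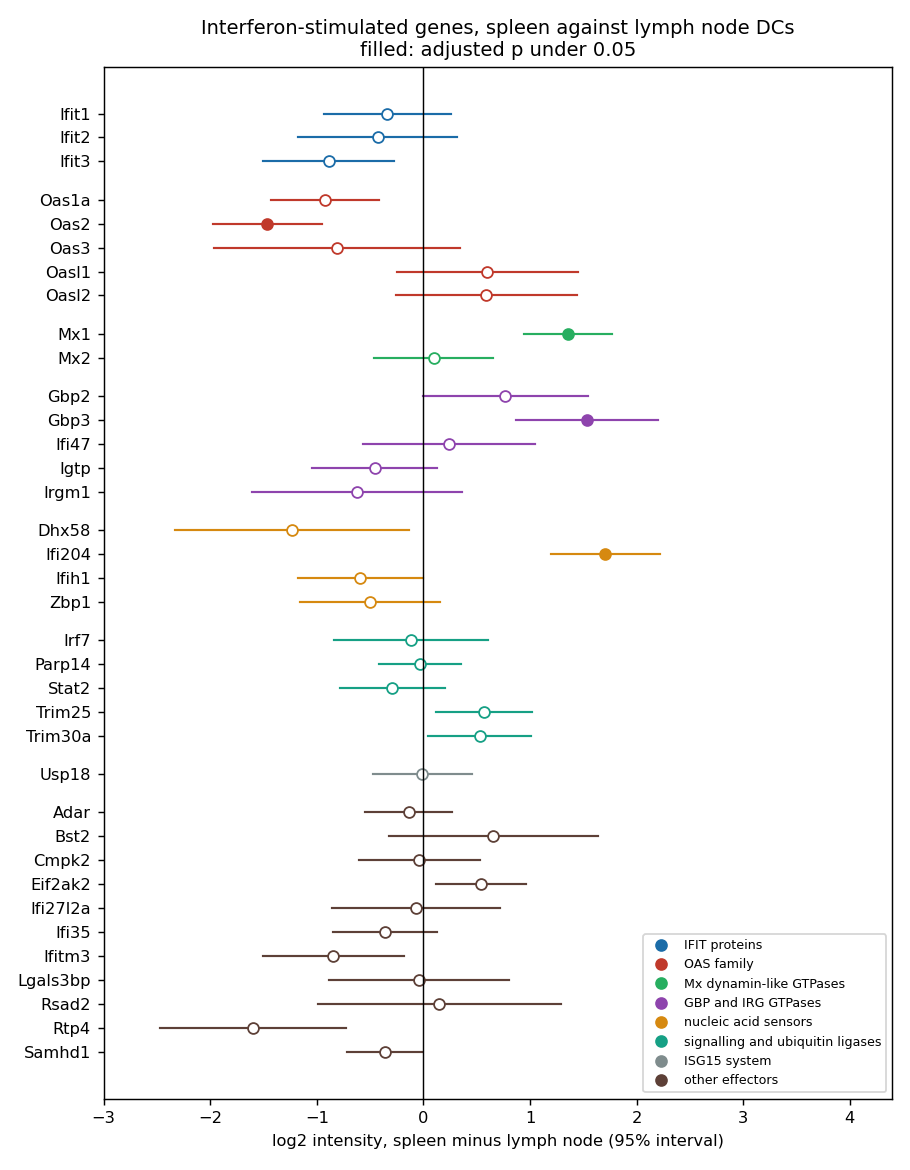
Difference in log2 intensity (spleen minus lymph node) of the 36 measured members with its 95% interval from limma, grouped and coloured by role; filled circles passed an adjusted p of 0.05. Mx1, Gbp3 and Ifi204 lie to the right and Oas2 to the left, while most intervals cross 0.

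The Mx proteins are dynamin-like GTPases that trap viral nucleoproteins, and BALB/c mice, like many laboratory strains, carry a defective Mx1 allele. Mx1 had log2 intensities of 6.94, 6.90 and 7.34 in lymph node arrays 1 to 3 and of 8.32, 8.53 and 8.39 in spleen arrays 1 to 3. All spleen arrays lay about 1 unit or more above the highest lymph node array. The mean was 8.41 ± 0.10 (SD, n = 3) against 7.06 ± 0.24 (SD, n = 3), a 2.56-fold difference (1.36 ± 0.18 log2 units, SE, limma adjusted p = 0.0119). Leaving out lymph node array 1 (adjusted p = 0.0777) or 2 (0.0756) ended the call, and the difference stayed between 1.28 and 1.495 with any 1 array left out. Its probe set cannot show whether the transcript makes a working protein. The related Mx2 differed by 0.10 ± 0.24 (SE, adjusted p = 0.885, 95% interval -0.47 to 0.66).

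The guanylate-binding proteins (GBPs) and the immunity-related GTPases attack the membranes of vacuoles that hold parasites and bacteria, and they answer strongly to interferon gamma. Gbp3 lay at 5.61, 5.75 and 6.38 in lymph node and at 7.94, 7.29 and 7.10 in spleen arrays, without overlap. It was 2.90-fold higher in spleen (1.53 ± 0.29 log2 units, SE, limma adjusted p = 0.0351). Leaving out lymph node array 1 or 2 raised its adjusted p to 0.153 and 0.148, and leaving out spleen array 1 or 2 raised it to 0.0871 and 0.0588.

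Gbp2, whose promoter stretch is shown beside that of Gbp3, had values of 5.54, 5.15 and 5.58 in lymph node and 6.97, 5.65 and 5.95 in spleen arrays. The groups did not overlap, but only narrowly, and the difference of 0.77 ± 0.33 (SE) did not pass (adjusted p = 0.268, 95% interval -0.01 to 1.54). GBP genes are close copies of each other, so their probe sets may share signal, which was not tested. Spleen array 1 held the highest value of both genes, while the lowest spleen value was in array 3 for Gbp3 and in array 2 for Gbp2. The immunity-related GTPases Ifi47 (0.24), Igtp (-0.46) and Irgm1 (-0.62), the first an effector and the other two regulators of the family, had overlapping groups and adjusted p of 0.391 to 0.777.

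Of the 4 nucleic acid sensors among the members, Ifi204 was higher in spleen and the other 3 did not pass. Ifi204, a DNA-binding protein of the HIN-200 family, lay at 3.28, 3.38 and 3.60 in lymph node and at 5.50, 5.13 and 4.75 in spleen arrays. Every lymph node value was under 4, near the low end of the scale, so the size of the fold is uncertain. The difference of 1.71 ± 0.22 log2 units (SE, limma adjusted p = 0.0119), or 3.27-fold, became 0.94 (adjusted p = 0.0367) with log2 of the value plus 16. It passed with any spleen array or lymph node array 3 left out, but not without lymph node array 1 (adjusted p = 0.0712) or 2 (0.0756). The HIN-200 genes are similar in sequence, and cross-hybridisation of this single probe set was not tested. Mndal and Aim2, other genes of the family, differed by -0.15 and -0.24 and did not pass.

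Dhx58 encodes LGP2, a helicase that tunes RNA sensing by RIG-I and MDA5. Its values were 6.89, 6.92 and 6.55 in lymph node and 4.41, 5.71 and 6.53 in spleen arrays, so the groups were only just apart and spleen array 3 reached the lymph node level. The difference of -1.23 ± 0.47 (SE) did not pass (limma adjusted p = 0.211), although all 3 of its probe sets had that sign. It was -0.66 without spleen array 1 and -1.72 without spleen array 3. Ifih1, which encodes the RNA sensor MDA5, differed by -0.59 ± 0.25 (SE, adjusted p = 0.256). Zbp1, a sensor of nucleic acid in the Z form that can trigger cell death, differed by -0.50 ± 0.28 (SE, adjusted p = 0.404).

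**Figure D3:**
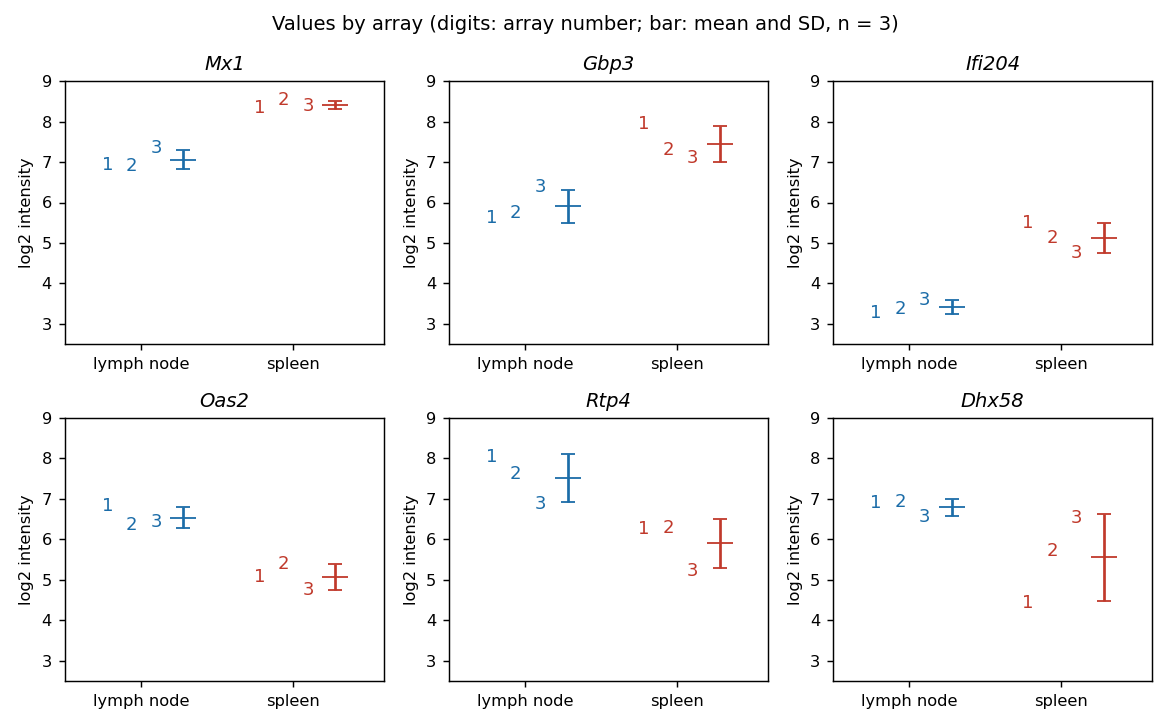
Log2 intensity in each array (digits are array numbers) with the mean and SD (n = 3) for the 6 members described array by array. Spleen lies above lymph node for Mx1, Gbp3 and Ifi204 and below it for Oas2, Rtp4 and Dhx58; Dhx58 in spleen array 3 (6.53) lies next to lymph node array 3 (6.55).

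The OAS enzymes make short oligoadenylates that activate the ribonuclease RNase L when they bind viral RNA. Oas2 lay at 6.82, 6.35 and 6.42 in lymph node and at 5.07, 5.39 and 4.74 in spleen arrays. The lowest lymph node array was nearly 1 unit above the highest spleen array. Oas2 was 2.76-fold lower in spleen (-1.47 ± 0.22 log2 units, SE, limma adjusted p = 0.0192). Without lymph node array 1, lymph node array 2 or spleen array 1 the call was lost (adjusted p of 0.0975, 0.0756 and 0.0648).

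Oas1a had the same direction without overlap, at 7.88, 7.84 and 7.34 in lymph node against 6.61, 7.08 and 6.61 in spleen arrays. It narrowly did not pass (-0.92 ± 0.22, SE, adjusted p = 0.0654), but passed with the filter at the median level and with array weights. Oas3 was spread widely in both groups, from 5.57 to 6.999 in lymph node and from 4.92 to 6.53 in spleen arrays, and its difference of -0.81 ± 0.50 (SE) did not pass (adjusted p = 0.439). The OAS-like genes, relatives of the synthases with a ubiquitin-like end, had differences in the other direction: Oasl1 by 0.60 ± 0.37 and Oasl2 by 0.59 ± 0.37 (SE, adjusted p of 0.439 and 0.445), at values under 4 in most lymph node arrays.

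The IFIT proteins bind viral RNA ends and block its translation. All 3 measured members had lower means in spleen, and none passed. Ifit3 lay at 8.43, 8.14 and 7.41 in lymph node and at 7.22, 7.04 and 7.04 in spleen arrays, without overlap (-0.89 ± 0.26, SE, adjusted p = 0.115). It passed without lymph node array 3, where 5 members did. Ifit1 differed by -0.34 ± 0.26 and Ifit2 by -0.43 ± 0.32 (SE, adjusted p of 0.549 and 0.544), with overlapping groups.

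Of the 5 signalling members and ubiquitin ligases none passed in limma, with 2 at an unadjusted p under 0.05, which 19.0% of all genes reached. Irf7, the factor that amplifies type I interferon production, differed by -0.11 ± 0.31 (SE, adjusted p = 0.893), and its highest value, 6.59, was in spleen array 3. Stat2, the ISGF3 subunit, differed by -0.29 ± 0.21 (adjusted p = 0.532), and its second probe set by -0.59. Trim25, the ligase that acts on RIG-I, was at 10.80 to 11.12 in lymph node and 11.32 to 11.84 in spleen arrays, and Trim30a at 8.65 to 8.71 and 8.96 to 9.64. Both had groups that did not overlap, but neither passed (0.57 ± 0.19 and 0.53 ± 0.21, SE, adjusted p of 0.161 and 0.222). Dimmer probe sets differed by 0.52 and 1.02 for Trim25 and by 1.07 for Trim30a, which passed with the mean of all probe sets. Parp14, an ADP-ribosyltransferase, differed by -0.03 ± 0.16, with a 95% interval of -0.41 to 0.35. Usp18, the protease that removes ISG15 from proteins and dampens the receptor, differed by -0.01 ± 0.20 (95% interval -0.47 to 0.45).

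Of the 11 other effectors none passed. Rtp4, a chaperone of G protein-coupled receptors, lay at 8.03, 7.62 and 6.87 in lymph node and at 6.24, 6.26 and 5.21 in spleen arrays. Both groups ranged over about 1 unit, and array 3 was the lowest in each. The difference of -1.60 ± 0.38 (SE) was 3.03-fold and missed the threshold (limma adjusted p = 0.0650); its second probe set differed by -0.63. Rtp4 passed with the filter at the median level (0.0448), with eBayes trend and robust (0.0498), with array weights (0.0334) and with the replicate block (0.0104). With the mean of its probe sets the difference was -1.12 (0.0777), and with the poly-A control level as a covariate it was -0.13 (0.987). Ifitm3, which keeps viruses from fusing in endosomes, was at 11.06 to 11.44 against 9.83 to 10.80 (-0.84 ± 0.28, SE, adjusted p = 0.159). Samhd1, which depletes the nucleotides that retroviruses need, differed by -0.36 ± 0.15 without overlap (adjusted p = 0.247).

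Eif2ak2, which encodes the RNA-dependent kinase PKR that halts translation, was at 7.33 to 7.79 in lymph node and 7.92 to 8.24 in spleen arrays. Its difference of 0.54 ± 0.18 (SE) did not pass (adjusted p = 0.160), and its second probe set differed by 1.02. With the mean of all probe sets per gene, Eif2ak2 and Trim30a joined the members that passed, 6 in all (16.7%, against 3.87% of all genes in that fit). Bst2, the tetherin that holds budding virus on the cell and a marker of plasmacytoid DCs, lay at 5.99, 6.24 and 6.56 in lymph node and at 6.09, 6.77 and 7.90 in spleen arrays. The high value was in spleen array 3 alone, the array with the highest plasmacytoid DC marker level, a list that includes Bst2 (without it 8.57, against 6.89 to 7.10 in the other spleen arrays). The groups overlapped (0.66 ± 0.42, SE, adjusted p = 0.461). The part of plasmacytoid DCs in these values was not tested.

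Rsad2, which encodes the antiviral enzyme viperin, had values from 7.63 to 8.31 in lymph node and from 7.003 to 9.08 in spleen arrays (0.15 ± 0.49, SE). Its dimmer probe sets differed by 0.89 and 0.05. Its neighbour Cmpk2, a mitochondrial nucleotide kinase, differed by -0.04 ± 0.24. The remaining effectors had overlapping groups and differences between -0.36 and -0.04. They were Ifi27l2a (-0.07), a small membrane protein, Ifi35 (-0.36), the RNA-editing enzyme gene Adar (-0.14) and Lgals3bp (-0.04), a secreted galectin-binding protein. For Lgals3bp the 95% interval reached from -0.89 to 0.80, so a difference anywhere in that range is not excluded by these arrays. Several probe sets represented 11 members, and in 10 of these their differences shared a direction. The exception was Cmpk2 (-0.04 and 0.02).

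**Figure D4:**
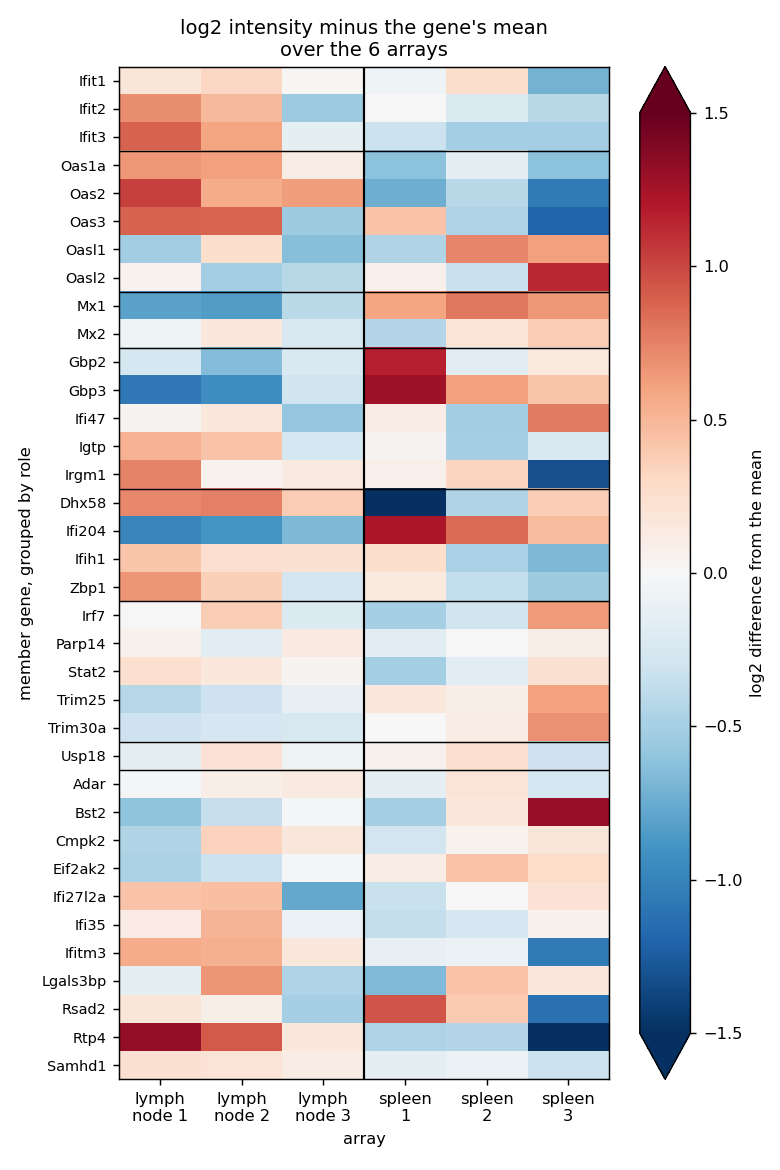
Log2 intensity of each member in each array minus its mean over the 6 arrays, with members grouped by role (black lines) and lymph node arrays left of the vertical line. Values outside -1.5 to 1.5 take the end colours; lymph node array 3 is lower than arrays 1 and 2 for Ifit2, Ifit3, Oas3, Rsad2, Ifi27l2a and Rtp4.

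Many members were low in the same lymph node array. Array 3 held the lowest lymph node value for 21 of the 36 members (58.3%), against 36.0% of all genes. For 10 members (27.8%) it lay at least 0.5 log2 units below both other lymph node arrays, against 4.47% of all genes. These were Ifit2, Ifit3, Oas1a, Oas3, Rsad2, Ifi27l2a, Rtp4, Zbp1, Ifi47 and Igtp, named after their values were seen. Ifi27l2a, for example, was at 8.11 and 8.13 in arrays 1 and 2 and at 6.92 in array 3, and Ifit2 at 7.85, 7.63 and 6.61.

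Gbp3 alone lay at least 0.5 units above both others in array 3 (2.78% of the members, against 5.66% of all genes). In that array the mean log2 levels of several marker lists were the highest of the lymph node arrays. They were those of macrophages and monocytes (7.02), T cells (6.03), B cells (5.73), NK cells (6.16) and plasmacytoid DCs (6.25). The part of these cells in the pattern was not tested. Without lymph node array 3 the median difference of the members was -0.26 and 5 members passed, 3 higher and 2 lower (13.9%, against 2.48% of all genes in that fit).

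In the spleen arrays, members stood apart in both directions. Spleen array 3 lay at least 0.5 units below both others for 6 members, Ifit1, Oas3, Rsad2, Rtp4, Ifitm3 and Irgm1, and above both for 6, Oasl2, Irf7, Bst2, Dhx58, Trim30a and Ifi47. The share of all genes was 7.37% below and 9.04% above in that array, against 16.7% of the members in each direction. In spleen array 1 the members above both others were Oas3, Rsad2, Zbp1, Ifih1, Gbp2 and Gbp3 (16.7%, against 5.34% of all genes), and 5 were below (13.9%, against 6.12%). Averaged over members, the log2 level was 6.98 ± 0.16 (SD, n = 3) in lymph node and 6.90 ± 0.04 (SD, n = 3) in spleen arrays, a difference smaller than the spread between lymph node arrays.

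The rest of the pathway was followed in 6 lists of 105 genes, of which 84 were measured. In all, 3 were higher in spleen and 1 lower, or 4.76%, against the 3.40% of all genes, with a median difference of -0.12. An unadjusted p under 0.05 in limma was reached by 20 of the 84, where 19.0% of all genes reached it. Among the interferon genes themselves 0 of 9 measured passed in limma, with 0 at an unadjusted p under 0.05, and 6 had group means under 4 in both organs. Ifnb1 lay at 2.00 to 2.35 in lymph node and 2.32 to 2.77 in spleen arrays, Ifna1 at 4.51 to 4.77 and 4.26 to 4.50, and Ifna2 at 1.81 to 1.96 and 1.93 to 2.29. Ifng, chosen here after its values were seen, was at 2.56, 3.20 and 3.54 in lymph node and at 7.49, 6.15 and 2.68 in spleen arrays. Its signal was thus high in spleen arrays 1 and 2 only, and the difference of 2.34 ± 1.06 (SE) did not pass (adjusted p = 0.286). The mean T cell marker level in spleen arrays 1 to 3 was 7.52, 5.91 and 6.62, and the part of T or NK cells was not tested.

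Of 8 receptor, kinase and STAT genes 0 passed in limma, 2 with an unadjusted p under 0.05, which 19.0% of all genes reached. The type I receptor chains Ifnar1 and Ifnar2 differed by 0.32 ± 0.38 and 0.24 ± 0.24 (SE), and the gamma receptor chain Ifngr1 by -0.89 ± 0.32 (SE, adjusted p = 0.180), without overlap. Of 8 interferon transcription factors 0 passed, 1 with an unadjusted p under 0.05. That was Irf8, named after its values were seen, with the largest difference of the list (1.67 ± 0.56, SE, limma adjusted p = 0.156) and no overlap. Irf9, the ISGF3 subunit, differed by -0.41 ± 0.22, Irf1, a factor of the gamma response, by 0.27 ± 0.16 and Irf2 by -0.17 ± 0.23 (SE).

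Of 9 genes of nucleic acid sensing upstream of interferon, Ikbke was higher in spleen and 0 were lower. The differences ran from -1.16 (Unc93b1) to 1.24 (Tlr3), with 5 of the 9 genes at an unadjusted p under 0.05 in limma, against 19.0% of all genes. Ikbke encodes a kinase that activates IRF3 and IRF7, and it lay at 3.69, 4.10 and 4.29 against 4.94, 5.11 and 5.10 (1.02 ± 0.19, SE, limma adjusted p = 0.0373). In the same list Mavs, the adaptor of RIG-I, differed by -0.96 ± 0.52, Sting1, the adaptor of DNA sensing, by -0.65 ± 0.17 (adjusted p = 0.0843) and the kinase gene Tbk1 by -0.25 ± 0.16. Of 9 negative regulators 1 was higher, Socs3 (2.497 ± 0.25, SE, limma adjusted p = 0.00550), an inhibitor of cytokine receptors. This brightest probe set and another that was higher in spleen carry the suffix _x_at, left out in an alternative below. The only Socs3 probe set without that suffix differed by -0.52, in the other direction, with means under 4 in both organs. Whether the _x_at signal came from Socs3 alone was not tested. The first 3 of the list included Socs1 (0.01), the main brake on interferon gamma signalling, and Usp15 (0.16).

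Of 41 further interferon-induced genes 1 was higher and 1 lower. The differences ran from -1.78 (Slfn4) to 2.18 (Iigp1), with 9 of the 41 genes at an unadjusted p under 0.05 in limma, against 19.0% of all genes. Ube2l6, the enzyme that carries ISG15 to its targets, lay at 4.97, 5.28 and 5.13 in lymph node and at 6.58, 6.25 and 6.002 in spleen arrays, without overlap (1.15 ± 0.20, SE, limma adjusted p = 0.0283). Uba7, the enzyme that activates ISG15 ahead of it, differed by -0.22 ± 0.17 and did not pass. Slfn2, a schlafen gene of immune cell quiescence, lay at 8.89, 8.97 and 8.57 against 6.93, 7.57 and 7.26, without overlap, and was lower in spleen (-1.56 ± 0.21, SE, limma adjusted p = 0.0127). Isg20, an exonuclease gene, differed by -1.15 ± 0.26 (adjusted p = 0.0549) and missed the threshold.

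**Figure D5:**
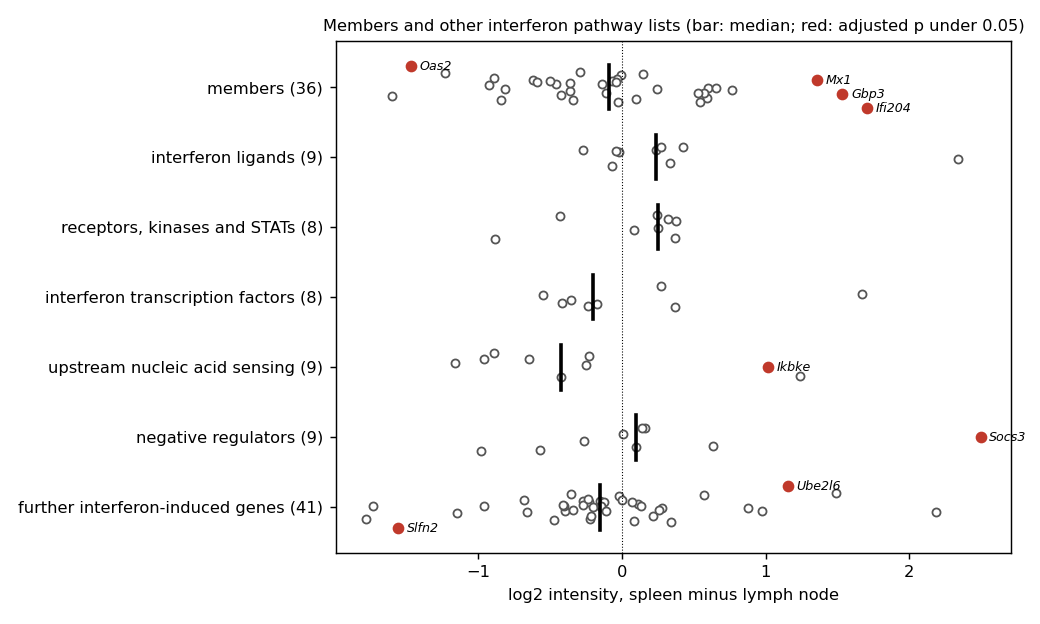
Log2 differences (spleen minus lymph node) of the 36 members and of the 6 other interferon pathway lists, with the number of measured genes in parentheses, the median as a bar and genes past an adjusted p of 0.05 in red. Called genes stand out on both sides while the medians of all lists lie within 0.5 of 0.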

How the data were processed

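The table deposited by the authors holds a linear intensity per probe set and array, already normalized between arrays. The submitters' processing notes name RMA and limma, with no version or role given in the sources used here. A floor or later rescaling cannot be read from the values and is unknown. Of 22690 probe sets, 64 were controls, and 20380 had a single gene symbol in the array annotation, 691 several and 1555 none. Of the single-symbol ones, 20351 matched a RefSeq gene table by Entrez identifier, which changed 0 symbols. For each of 12393 genes the brightest probe set over the 6 arrays was kept.

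Intensities were taken to log2 without a filter. Spleen and lymph node arrays, grouped by title, were compared with limma 3.58.1 under R 4.3.3 (functions lmFit and eBayes) in two-sided tests at a threshold of 0.05, with p-values adjusted by Benjamini-Hochberg across all genes. Array values and full statistics are given for members that passed, or that differed by at least 1 log2 unit without overlap, and for others where a range or example helps; in the pathway lists, for genes that passed and the first 3 measured. The members and lists were chosen with earlier results of these data known. The functions were tested on simulated data.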

Additional observations from a re-analysis of the deposited data

How the results depend on the processing

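Alternatives were run for the count of all genes past the threshold (421), the 4 members past it, the members' median difference (-0.09) and the 6 members described array by array. None of these 6 members changed direction under any alternative that measured it, and the median changed sign only with the poly-A control level as a covariate. With 1 array left out, the count of all genes ranged from 47 to 475, the count of members from 0 to 5 and the median from -0.26 to -0.040. Array weights gave 764 genes. With the poly-A control level as a covariate 0 genes passed in limma (723 with an unadjusted p under 0.05), 0 of them members (2 unadjusted), and the median of the members was 0.01. In that fit Rtp4 went from -1.60 to -0.13, Oas2 from -1.47 to -0.58 and Gbp3 from 1.53 to 0.86, while Mx1 stood at 1.30, Ifi204 at 1.55 and Dhx58 at -0.95. That level separates the organs without overlap, so the level and the organ cannot be told apart. At an adjusted p of 0.01, 63 genes and 0 members passed in limma, with 14 members at an unadjusted p under 0.05. The filter at the median level moved the median to -0.29. Leaving out probe sets with the suffixes _x_at, _s_at and _a_at left 28 members, among them neither Mx1 nor Gbp3. Of these, 2 passed (Oas2 and Ifi204, 7.14%, against 3.12% of all genes in that fit), and the median was -0.35. With the offset of 16, Gbp3 lost its call (adjusted p = 0.0605).

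With the replicate block 519 genes and 4 members passed, Rtp4 (adjusted p = 0.0104) in place of Gbp3 (0.0542). The deviations of same-numbered arrays correlated by 0.022, 0.242 and 0.158. Lymph node arrays 2 and 3 correlated best with the spleen array of their own number. Lymph node array 1 correlated best with spleen array 2 (0.13). The labels name no pairs, and the main fit did not treat the numbers as pairs. Dhx58 passed in none of the alternatives (limma adjusted p from 0.0578).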
